A study of Mus musculus with 12 samples.

Results

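The genes described here were 36 genes of fatty acid and cholesterol synthesis, chosen by symbol from the 47593 genes with values in 12 mammary tumors. They comprised 7 genes of acyl chain synthesis, 7 of desaturation and elongation, 5 of glycerolipid assembly, 4 regulators of the SREBP pathway and 13 of sterol synthesis. The tumors came from 9 MADM-mutant mice, which carried the MADM RG;GR alleles on a mixed background and received no treatment. MADM, or mosaic analysis with double markers, starts from a mouse that is heterozygous for a mutant gene. In dividing cells Cre recombines the paired chromosomes. This yields rare homozygous mutant cells marked green and wild-type sibling cells marked red. Here the mutant genes were Brca1 and p53, and Cre was driven by the MMTV promoter, which is active in mammary epithelial cells. All tumors belonged to 1 condition and normal gland was not analysed here, so that levels could be compared only between tumors and mice. In 7 mice a single tumor was sequenced, while tumors 3 and 4 were sisters from one animal, as were tumors 10, 11 and 12. Levels are given in TPM, a unit that divides reads by gene length and scales each tumor to the same total. The number of reads is not kept in TPM, so depth was unknown and no counting interval could be given.

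Cells build fatty acids from acetyl-CoA, which ATP citrate lyase (Acly) makes from citrate, acetyl-CoA carboxylases convert to malonyl-CoA, and fatty acid synthase (Fasn) assembles into chains. Cholesterol starts from the same acetyl-CoA but runs through HMG-CoA, mevalonate and squalene. Both branches are controlled by SREBP transcription factors, which stay in the endoplasmic reticulum with SCAP and INSIG when sterols are plentiful. In the lactating gland the fatty acid branch supplies milk triglyceride, and Csn2 and Csn3 encode the milk proteins beta-casein and kappa-casein.

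Before the lipid genes were compared, the tumors were checked against markers of other cell types. Tumor 2 carried almost no epithelial transcripts, with Epcam and Krt19 at 0 and Krt8 at 0.326 TPM, and had high B lymphocyte transcripts, with Cd79a at 609 TPM. All 7 epithelial markers were lowest in tumor 2 and next lowest in tumor 8, which had 2.03 TPM of Epcam. Tumor 8 had the highest levels of the fibroblast genes Dcn, 1732 TPM, and Pdgfra, 111 TPM. The fibroblast genes Col1a1, Col1a2, Col3a1 and Lum were highest in tumor 4 instead. All 5 macrophage markers were highest in tumor 8, with Csf1r at 222 TPM. The 7 adipocyte markers, summed, ranged from 12.4 TPM in tumor 1 to 517 TPM in tumor 4, and Adipoq, which encodes adiponectin, was at 0 in tumors 1 and 2. Csn2 ranged from 0 TPM in tumor 2 to 3323 TPM in tumor 9, with a median of 10.9, whereas Csn3 ranged from 0.359 TPM in tumor 2 to 2236 TPM in tumor 3. Tumors 2 and 8 thus went against the epithelial cell type expected of a mammary tumor, and values without them are given beside the calls that were lost when they were left out. In whole tumors, fewer cells of a type and less RNA per cell cannot be told apart.

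Together the 36 genes took between 0.112% of all TPM in tumor 2 and 0.250% in tumor 9. The 13 sterol genes had mean levels between 13.7 TPM for Lss and 124 TPM for Fdps, and every one of them was above 7 TPM in every tumor, the lowest value being 7.23 TPM of Lss in tumor 2. The fatty acid genes covered a wider range, from Scd1 at 238 ± 190 TPM (SD, n = 9 mice) down to Olah. Olah, the thioesterase that ends chains at medium length for milk fat, was listed at 0 in 11 tumors and at 0.0764 TPM in tumor 3. It was the only one of the 36 genes below a mean of 1 TPM and was not tested, which left 35 of 36.

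**Figure D1:**
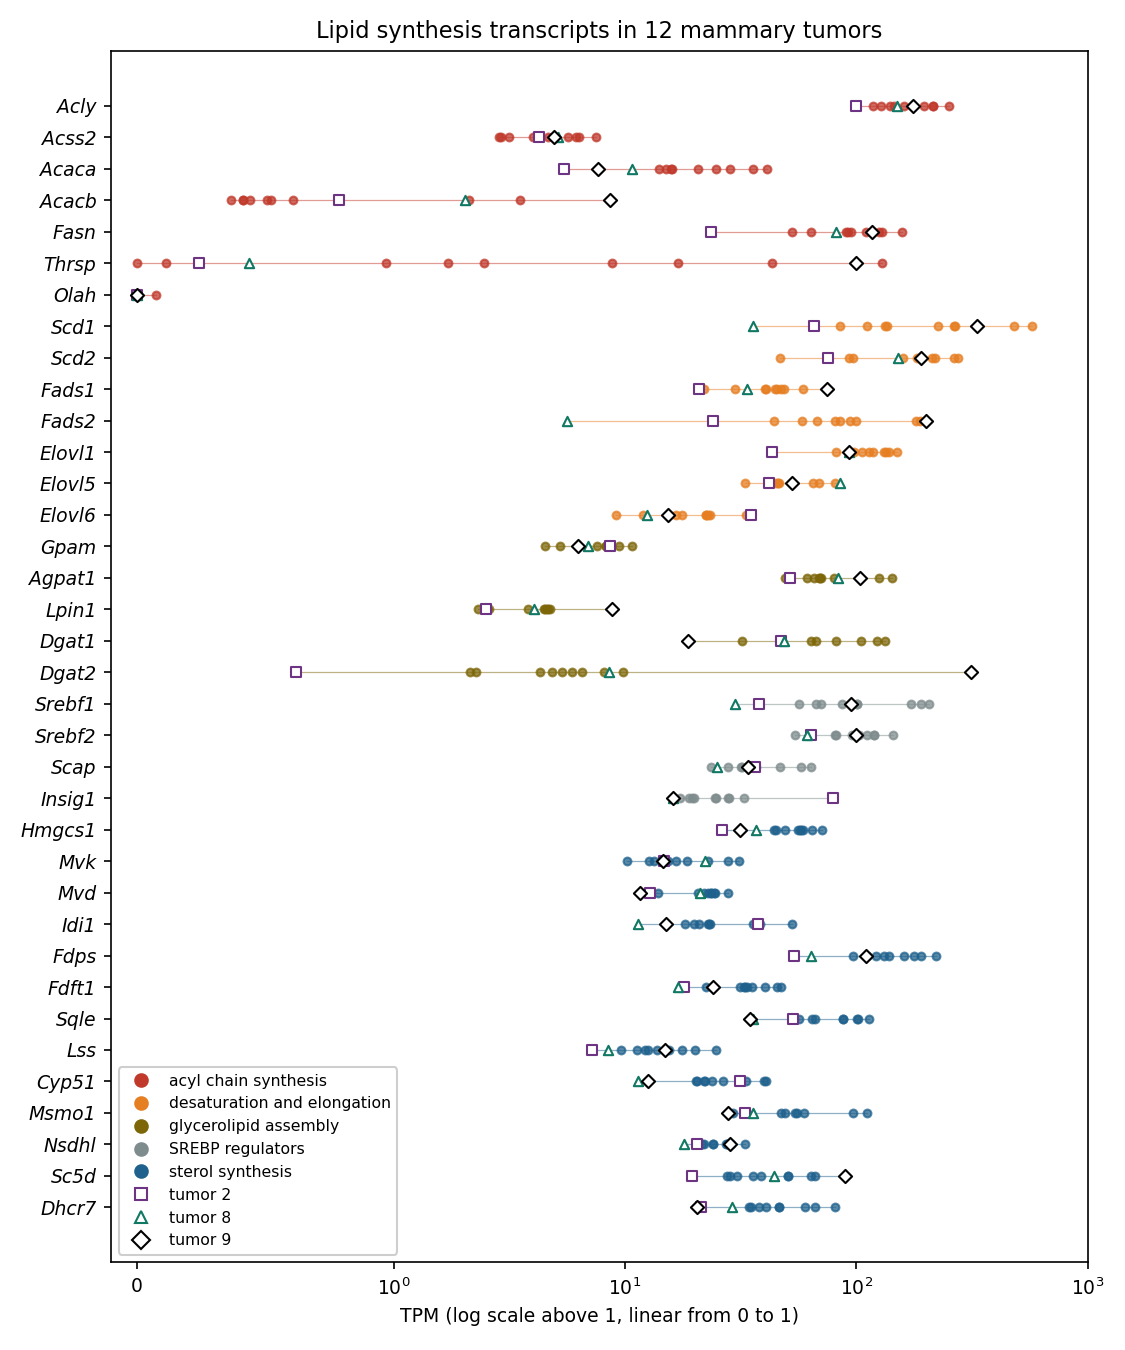
Level of each of the 36 genes in each tumor, in TPM on a horizontal axis that is logarithmic above 1 and linear from 0 to 1, with 1 point per tumor and a line over the range. Tumors 2, 8 and 9 have symbols of their own; Dgat2 reached 312 TPM in tumor 9 and no more than 9.85 TPM elsewhere.

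Differences between mice were tested gene by gene with the limma moderated F test on log2(TPM + 1), in which the spread between sister tumors of the 2 mice with several tumors served as error. Of the 35 lipid genes tested, 18 differed between mice at an adjusted p below 0.05, beside 42.9% of all 16779 genes tested. By role, 2 of 6 acyl chain genes, 5 of 7 desaturation and elongation genes, 3 of 5 glycerolipid genes, 1 of 4 regulators and 7 of 13 sterol genes were among them. In a separate list of other genes of the same pathways, 21 of 39 tested were called. The count moved with the tumors in the fit, and the number of all genes called moved the same way in each case given here (7204 with all tumors). Without tumor 3 it was 4 (2053 of all genes), without tumor 4 also 4 (2107), without tumor 10 it was 28 (10407) and without tumor 11 it was 9 (4014). Without tumor 2 it was 9 (3841 of all genes), without tumors 2 and 8 it was 7 (3058), and without tumors 2 and 9 it was 2 (1012). Without tumor 2 the calls that remained were those of Acacb, Fasn, Scd1, Scd2, Fads2, Dgat2, Idi1, Cyp51 and Dhcr7, and the other 9 genes then had an adjusted p between 0.052 and 0.23. Without tumors 2 and 8 the calls of Scd1 and Idi1 were lost as well, and without tumors 2 and 9 the 2 that remained were Scd2 and Fads2. The SD over mice on the log2 scale had a median of 0.562 over the 35 genes and 0.571 over all genes tested. Among the sterol genes it lay between 0.239 for Nsdhl and 0.668 for Dhcr7, while among the other lipid genes it reached 2.42 for Thrsp and 2.12 for Dgat2.

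**Figure D2:**
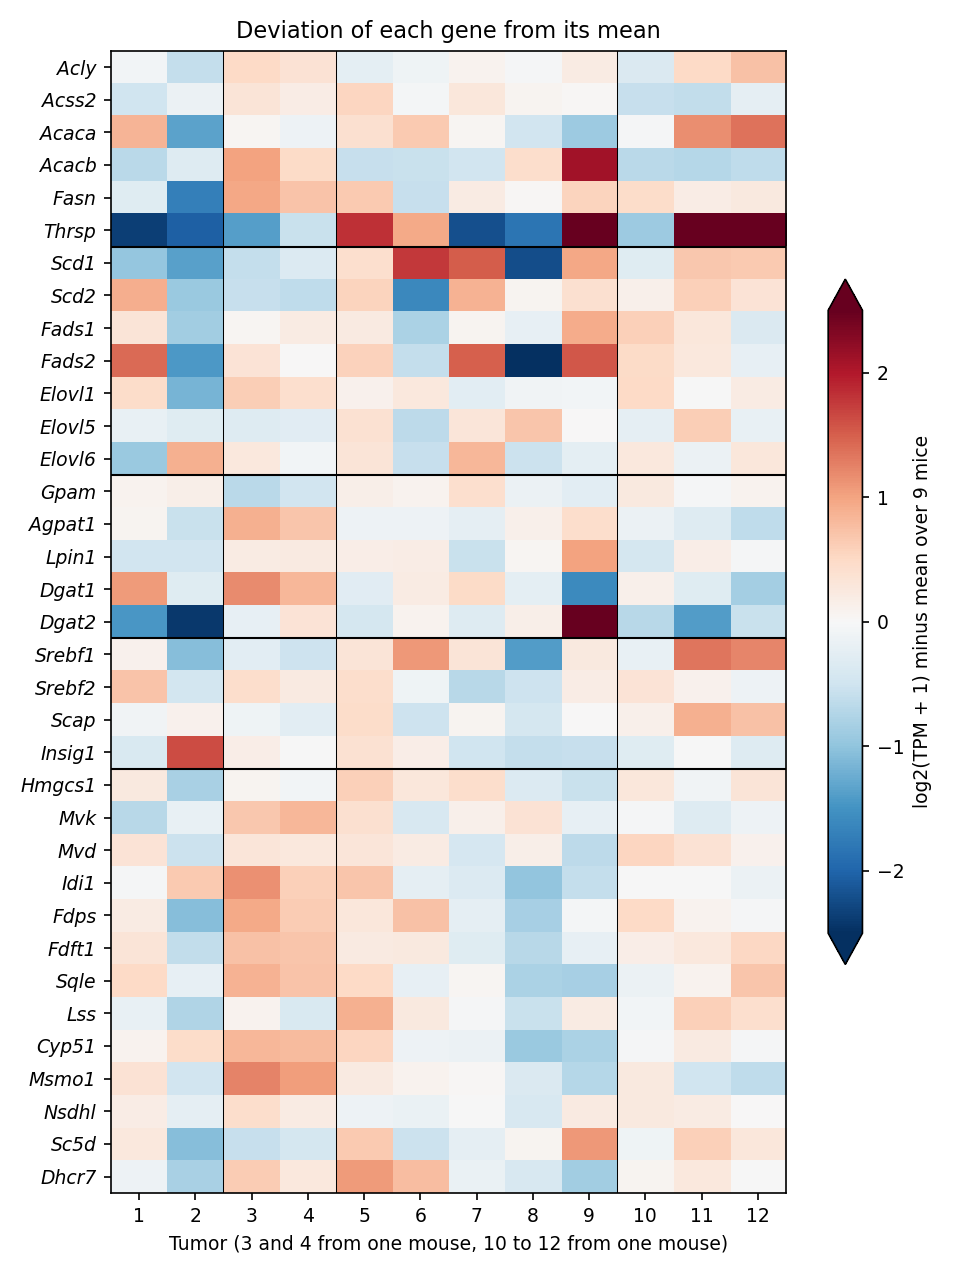
Log2(TPM + 1) of the 35 tested genes in each tumor minus the gene's mean over 9 mice, red above and blue below, with black lines between the gene groups. Thrsp in tumors 9, 11 and 12 and Dgat2 in tumor 9 lie beyond the red end of the color scale, and Fads2 in tumor 8 beyond the blue end. The sterol genes of tumors 3 and 4 are mostly red.

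Among the 6 acyl chain genes tested, the SD over mice of log2(TPM + 1) was 0.31 for Acly and 0.34 for Acss2, and lay between 0.78 (Acaca) and 2.42 (Thrsp) for the other four. Acly ranged from 99.6 TPM in tumor 2 to 252 TPM in tumor 12 around a median of 155 TPM, and its mice did not differ beyond the sister spread (limma F test, adjusted p = 0.56). Fasn (ENSMUSG00000025153, chromosome 11 from 120805846 to 120824547 on the minus strand of GRCm38) was lowest at 23.5 TPM in tumor 2 and highest at 157 TPM in tumor 3, with a median of 93.3 TPM. Its mice did differ (limma F test, adjusted p = 0.0083, and 0.042 without tumor 2), but not without tumors 2 and 9 (adjusted p = 0.063). Without tumor 2 the lowest Fasn value was 52.9 TPM, in tumor 6. Acss2, which makes acetyl-CoA from acetate, stayed between 2.84 and 7.52 TPM.

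The 2 acetyl-CoA carboxylases went different ways. Acaca, the cytosolic enzyme that feeds fatty acid synthase, ran from 5.47 TPM in tumor 2 to 41.2 TPM in tumor 12. Acacb, the isoform at the mitochondrial surface, was at most 3.52 TPM in 11 tumors and 8.61 TPM in tumor 9. Tumor 9 was the single tumor in which Acacb exceeded Acaca, by 0.15 on the log2(TPM + 1) scale. In the other tumors Acaca exceeded Acacb, with a log2 difference of Acacb minus Acaca between -4.87 and -1.86. Acacb differed between mice (limma F test, adjusted p = 0.015), with 0.047 without tumor 9 and 0.074 without tumors 2 and 9. Acaca did not pass (adjusted p = 0.14).

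Thrsp (ENSMUSG00000035686, chromosome 7 from 97412938 to 97417730, minus strand), also called Spot 14, is a nuclear protein associated with lipogenesis in liver, fat and lactating gland. Tumors 11, 9 and 12 had 43.0, 99.7 and 129 TPM, tumor 1 was listed at 0, and the other tumors had 17.0 TPM or less. The median over all 12 tumors was 2.08 TPM. The sister tumors 10, 11 and 12 covered 1.71, 43.0 and 129 TPM, a range of 5.58 on the log2 scale out of 7.02 over all 12 tumors. Sisters thus spanned most of the range of the series, and Thrsp did not differ between mice beyond them (limma F test, adjusted p = 0.22). Fasn in the same 3 sisters stayed between 90.5 and 110 TPM.

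Of the 7 desaturation and elongation genes, 5 differed between mice. Scd1 and Scd2, which introduce the first double bond into saturated chains, were the most abundant lipid genes, at 238 ± 190 and 167 ± 81.0 TPM (SD, n = 9 mice). Scd1 was lowest in tumor 8, at 35.7 TPM, and highest in tumor 6, at 577 TPM, while Scd2 was lowest in that same tumor 6, at 46.6 TPM, and highest in tumor 1, at 274 TPM. Scd1 minus Scd2 was accordingly 3.60 on the log2 scale in tumor 6 and -2.06 in tumor 8, so that the desaturase with the higher listed TPM differed from tumor to tumor. How reads were divided between these 2 related genes was not tested. Both genes differed between mice (limma F test, adjusted p = 0.019 for Scd1 and 0.0083 for Scd2), but without tumors 2 and 8 only Scd2 did (adjusted p = 0.059 for Scd1 and 0.018 for Scd2).

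Fads2, the delta-6 desaturase of polyunsaturated fatty acids, was lowest in the 2 epithelial-poor tumors. Tumor 8 had 5.59 TPM and tumor 2 24.1 TPM, whereas the other 10 tumors had between 44.1 and 200 TPM. Its partner Fads1, the delta-5 desaturase encoded beside it on chromosome 19, was 33.6 TPM in tumor 8, inside its range of 20.9 to 74.95 TPM. Fads2 was above Fads1 in 11 of 12 tumors, and in tumor 8 Fads2 minus Fads1 was -2.39 on the log2 scale. Fads2 differed between mice (limma F test, adjusted p = 0.0051, and 0.014 without tumor 8). Of the elongases, Elovl1 was lowest in tumor 2, at 43.4 TPM against 82.0 to 150 TPM elsewhere, and Elovl6, which extends palmitate, was highest in tumor 2, at 35.2 TPM. Both differed between mice with tumor 2 (limma F test, adjusted p = 0.042 and 0.046) but not without it (adjusted p = 0.23 and 0.079). Elovl5 stayed between 33.2 and 85.1 TPM (adjusted p = 0.28).

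Of the 36 genes, Dgat2 of glycerolipid assembly had the widest range over the tumors, 7.60 on the log2(TPM + 1) scale. Dgat1 and Dgat2 encode unrelated enzymes that both add the last acyl chain of triglyceride. Dgat2 (ENSMUSG00000030747, chromosome 7 from 99153658 to 99182719, minus strand) reached 312 TPM in tumor 9 and otherwise ran from 0.619 TPM (tumor 2) to 9.85 TPM (tumor 4). Dgat1 had its lowest value in that same tumor 9, at 18.7 TPM, and ran up to 133 TPM in tumor 3. Dgat2 minus Dgat1 was 3.99 on the log2 scale in tumor 9 and between -5.31 and -2.38 in the other 11 tumors, so tumor 9 alone had more Dgat2 than Dgat1. Dgat1 and Dgat2 each differed between mice (limma F test, adjusted p = 0.043 and 0.0058), but without tumor 9 neither did (adjusted p = 0.090 and 0.062), and Dgat1 did not without tumor 2 (adjusted p = 0.054) or without tumors 2 and 8 (adjusted p = 0.053). The 7 adipocyte markers had a median of 10.1 TPM in tumor 9, against 8.89 TPM in tumor 5 and 22.9 TPM in tumor 4, where Dgat2 was 5.34 and 9.85 TPM. One of them, the leptin gene Lep, was highest of all 12 tumors in tumor 9, at 5.68 TPM. The other adipocyte markers were all highest in tumor 4. The B lymphocyte gene Cd79a was 41.6 TPM in tumor 9. The part of adipocytes and of B lymphocytes in the Dgat2 value was not tested.

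The remaining glycerolipid genes were steadier. Lpin1, a phosphatidate phosphatase, was likewise highest in tumor 9, at 8.83 TPM, against 4.74 TPM in the next tumor. Gpam, the mitochondrial enzyme that adds the first acyl chain to glycerol 3-phosphate, stayed between 4.50 and 10.7 TPM. Agpat1, which adds the second, was highest in the sister tumors 3 and 4, at 142 and 125 TPM, and differed between mice (limma F test, adjusted p = 0.043, but 0.063 without tumor 2).

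**Figure D3:**
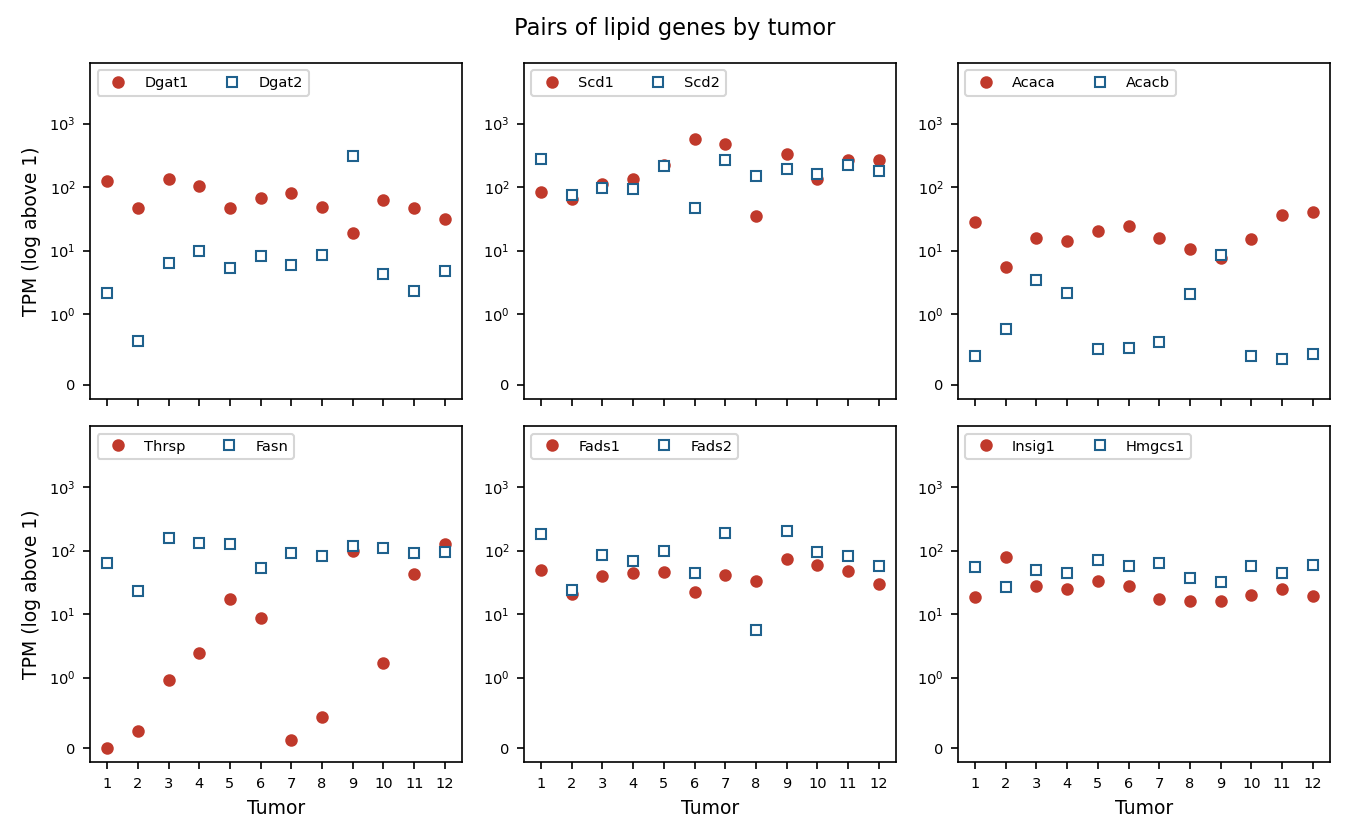
TPM by tumor for 6 pairs of lipid genes, on axes that are logarithmic above 1 and linear below, with filled circles for the first gene named and open squares for the second. Dgat2 lies above Dgat1 in tumor 9 alone, and Insig1 lies above Hmgcs1 in tumor 2 alone.

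The regulators were expressed in every tumor. Srebf1, whose products drive mainly fatty acid genes, ranged from 30.0 TPM in tumor 8 to 207 TPM in tumor 11, and Srebf2, which drives mainly sterol genes, from 54.4 TPM in tumor 7 to 145 TPM in tumor 1. Srebf1 exceeded Srebf2 in tumors 6, 7, 11 and 12. Neither passed the test between mice (limma F test, adjusted p = 0.16 and 0.052), and Scap stayed between 23.6 and 63.5 TPM.

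Insig1 (ENSMUSG00000045294, chromosome 5 from 28071363 to 28078662, plus strand), which holds SCAP back when sterols are high and is itself a target of SREBP, stood apart in tumor 2. Its level there was 79.5 TPM, against 16.1 to 32.8 TPM for the other 11 tumors, and it differed between mice with that tumor (limma F test, adjusted p = 0.018) but not without it (adjusted p = 0.13). Hmgcs1 was at its lowest in the same tumor, 26.3 TPM, so that Insig1 minus Hmgcs1 was 1.56 on the log2 scale in tumor 2 and between -1.84 and -0.80 in the other tumors. The related gene Insig2 was also lowest in tumor 2, at 23.8 TPM. Tumor 2 was the one with B lymphocyte transcripts and no Epcam, whose part in this value was not tested.

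The 13 sterol synthesis genes had their lowest summed level in tumor 2 (349.7 TPM) and their highest in tumor 3 (823 TPM). Tumor 3 had the highest value of 7 of the 13 genes and tumor 5 that of 3, whereas tumors 2, 8 and 9 each had the lowest value of 4 genes. Tumors 3 and 4 also carried the most transcripts of the muscle genes Acta1 (168 and 115 TPM) and Mylpf (107 and 66.8 TPM), whose part in the sterol values was not tested. At the entry, Hmgcs1 (ENSMUSG00000093930, chromosome 13 from 119690379 to 119708260, plus strand), which condenses acetyl-CoA into HMG-CoA, ranged from 26.3 TPM in tumor 2 to 71.4 TPM in tumor 5 with a median of 52.8. Mvk and Mvd, which phosphorylate and decarboxylate mevalonate products, had ranges of 10.2 to 31.0 and 11.7 to 27.9 TPM. Mvk was highest in tumors 4 and 3, at 31.0 and 27.8 TPM, and differed between mice (limma F test, adjusted p = 0.040, but 0.052 without tumor 2).

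In the isoprenoid and squalene steps, Idi1, the isopentenyl diphosphate isomerase, ranged from 11.3 TPM in tumor 8 to 52.6 TPM in tumor 3. Fdps, which makes farnesyl diphosphate, ranged from 54.0 TPM in tumor 2 to 222 TPM in tumor 3, and 26.7% of its exon bases are also exons of the predicted gene Gm43738 on the same strand, so its reads could have been split. Fdft1, which makes squalene, ranged from 16.9 TPM in tumor 8 to 47.3 TPM in tumor 3. Idi1, Fdps and Fdft1 differed between mice (limma F test, adjusted p = 0.031 for each), but without tumor 2 Fdps and Fdft1 did not (adjusted p = 0.070 and 0.054), and without tumors 2 and 8 Idi1 did not either (adjusted p = 0.064). Sqle, the epoxidase that follows, was highest in tumor 3, at 114 TPM, and lowest in tumor 9, at 34.6 TPM, but did not pass (adjusted p = 0.081).

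In the steps from lanosterol to cholesterol, Cyp51 and Msmo1 were also highest in tumors 3 and 4. Cyp51, the lanosterol demethylase, was 40.9 and 39.8 TPM there and 11.4 TPM in tumor 8 (limma F test, adjusted p = 0.018, but 0.056 without tumors 2 and 9), and Msmo1, a methyl sterol oxidase, was 112 and 96.9 TPM there and 27.95 TPM in tumor 9 (adjusted p = 0.078). Sc5d and Dhcr7, which act at the end of the pathway, had opposite extremes in tumor 9. Sc5d was highest there, at 89.8 TPM, and Dhcr7 lowest, at 20.5 TPM against 81.3 TPM in tumor 5. Both differed between mice (limma F test, adjusted p = 0.041 and 0.020), but Sc5d did not without tumor 2 (0.078) or tumor 9 (0.070), and Dhcr7 did without tumor 2 (0.037) but not without tumors 2 and 9 (0.083). Nsdhl was the steadiest of the lipid genes, between 18.05 and 32.9 TPM.

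Promoter windows from RefSeq (build GRCm38.p6, 250 bases before to 50 after a transcript start) were searched on both strands for the sterol regulatory element TCACNCCAC, for CCAAT, the NF-Y box, and for the E-box CACGTG. Windows were at hand for 28 of the 36 genes. This string for the sterol regulatory element, TCACNCCAC, was in the window of 1 of the 28 genes, Hmgcs1, beside 1.44% of all 27025 genes with a window. Variants of the string and sites outside the window were not searched. CCAAT was in a window of 22 of the 28 genes and of all 10 sterol genes with a window, beside 41.1% of all genes, and CACGTG in 5 of 28 beside 8.09%. None of the 3 motifs contains another, and a match is a description of letters and not of a bound factor.

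The Hmgcs1 window is shown as the one with the sterol regulatory element, and those of Fasn, Thrsp and Insig1 as the genes whose values are compared most here, the last 3 chosen after their values were seen. Capitals mark the sterol regulatory element, TCACCCCAC starting 137 bases before the start of Hmgcs1, and each CCAAT on either strand (4 in Hmgcs1, 3 in Fasn, 2 in Thrsp and 1 in Insig1).
Hmgcs1 (chr13:119690101-119690400, plus strand): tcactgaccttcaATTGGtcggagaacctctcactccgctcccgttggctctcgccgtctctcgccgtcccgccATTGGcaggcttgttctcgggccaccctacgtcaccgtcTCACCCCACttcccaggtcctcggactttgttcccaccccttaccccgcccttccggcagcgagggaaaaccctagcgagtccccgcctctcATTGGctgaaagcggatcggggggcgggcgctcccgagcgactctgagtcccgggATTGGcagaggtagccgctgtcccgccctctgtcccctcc
Fasn (chr11:120824498-120824797, minus strand): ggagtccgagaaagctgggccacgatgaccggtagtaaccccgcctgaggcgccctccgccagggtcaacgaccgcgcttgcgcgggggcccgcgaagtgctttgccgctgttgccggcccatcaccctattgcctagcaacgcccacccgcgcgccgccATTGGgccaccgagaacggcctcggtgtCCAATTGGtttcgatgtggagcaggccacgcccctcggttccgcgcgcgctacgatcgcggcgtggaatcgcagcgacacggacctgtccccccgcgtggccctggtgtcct
Thrsp (chr7:97417501-97417800, minus strand): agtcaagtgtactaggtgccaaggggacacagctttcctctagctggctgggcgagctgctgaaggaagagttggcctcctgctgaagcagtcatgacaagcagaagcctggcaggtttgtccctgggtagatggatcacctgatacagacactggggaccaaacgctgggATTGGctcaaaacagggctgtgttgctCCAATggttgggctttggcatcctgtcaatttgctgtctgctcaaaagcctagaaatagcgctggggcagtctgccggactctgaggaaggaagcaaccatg
Insig1 (chr5:28071162-28071461, plus strand): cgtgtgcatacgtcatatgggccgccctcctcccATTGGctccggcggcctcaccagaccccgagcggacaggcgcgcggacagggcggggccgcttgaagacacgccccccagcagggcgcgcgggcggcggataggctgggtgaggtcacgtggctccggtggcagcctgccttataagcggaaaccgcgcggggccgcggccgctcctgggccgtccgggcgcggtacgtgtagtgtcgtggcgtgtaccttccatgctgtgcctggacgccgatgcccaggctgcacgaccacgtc

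Fatty acid and sterol genes were then compared within each tumor, as the median of the 14 fatty acid genes (acyl chain, desaturation and elongation) against that of the 13 sterol genes. On the log2(TPM + 1) scale the fatty acid median was 5.41 ± 0.64 and the sterol median 4.90 ± 0.36 (SD, n = 9 mice). The difference, fatty acid minus sterol, was 0.51 ± 0.61 and was positive in 7 of 9 mice, so its size was within the spread between mice. It was largest in tumor 9, 1.76, where the medians were 84.0 and 23.9 TPM, and in tumor 7, 1.07, and lowest in tumor 3, -0.20, and tumor 8, -0.10. The sign depended on the list and on how it was summarised: with the mean in place of the median it was -0.31, and with the 7 acyl chain genes alone -1.84, since Acss2, Acacb, Thrsp and Olah were low in most tumors. The difference stayed positive with list genes of a mean of 1 TPM or more, at 0.73, and with the glycerolipid genes added, at 0.28. The fatty acid median ran from 4.43 in tumor 8 to 6.40 in tumor 9, and the sterol median from 4.48 in tumor 2 to 5.59 in tumor 3.

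**Figure D4:**
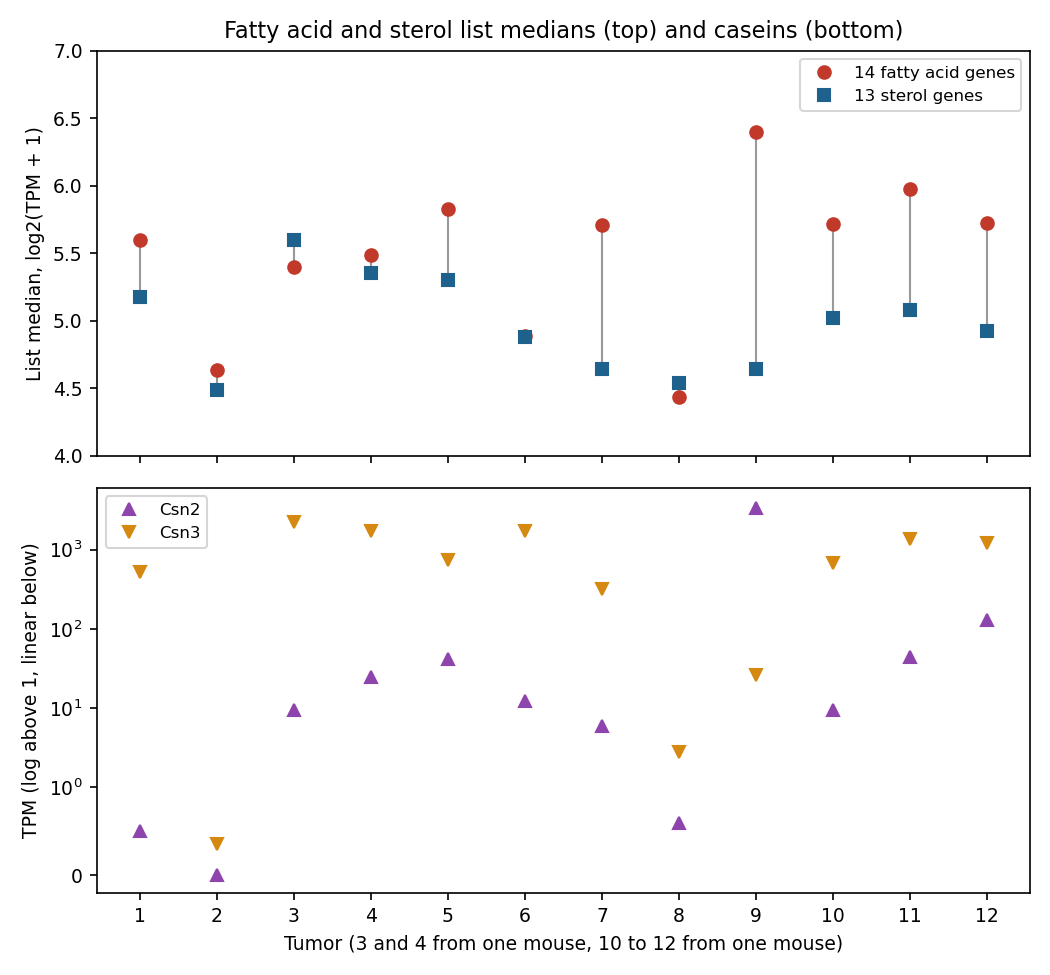
Top, median log2(TPM + 1) of 14 fatty acid genes (circles) and 13 sterol genes (squares) in each tumor, joined by a gray line. Bottom, TPM of Csn2 and Csn3 on an axis that is logarithmic above 1; tumor 9 has the widest gap, 1.76, the highest Csn2, 3323 TPM, and a Csn3 of 26.5 TPM.

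Pairs of sterol genes had higher correlations across mice than pairs of fatty acid genes, with no test of the difference. Over 9 mice the 78 pairs of sterol genes had a median Pearson's r of 0.41, and 71 pairs were positive, whereas the 78 pairs of tested fatty acid genes had a median of 0.22 and the 169 pairs across the 2 branches 0.19. The median over all pairs of tested genes was 0.021. Without the mice of tumors 2 and 8 these medians were 0.38, 0.012, -0.052 and 0.029. These r are a description over genes that share 9 or fewer mice.

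The key enzymes of the 2 branches were not found to move together. Across 9 mice Fasn and Hmgcs1 had r = 0.46 (exact permutation test, two-sided, p = 0.22, adjusted p = 0.54 over 10 gene pairs) and Spearman's rho of 0.20 (exact p = 0.61, adjusted p = 0.80). Without the 2 mice farthest from the median of Fasn, those of tumors 2 and 6, r was -0.045. Without the mouse of tumor 2 alone r was -0.15, and without that of tumor 6 alone it was 0.55, so the positive sign rested on the mouse of tumor 2. Srebf1 and Fasn had r = 0.28 (exact permutation p = 0.47, adjusted p = 0.67) and rho 0.067 (exact p = 0.88, adjusted p = 0.88), with r = -0.63 without the mice of tumors 8 and 2. Srebf2 and Hmgcs1 had r = 0.31 (exact permutation p = 0.41, adjusted p = 0.67) and rho 0.18 (exact p = 0.64, adjusted p = 0.80), with r = 0.63 without the mice of tumors 7 and 8. Transcript levels of a regulator and its target gene were thus not shown to be related over these mice.

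The highest r of the 10 pairs was that of Fasn with the adipocyte gene Adipoq. They had r = 0.77 (exact permutation p = 0.0084, adjusted p = 0.084) and rho 0.90 (exact p = 0.0017, adjusted p = 0.017) over 9 mice, and r = 0.92 (exact permutation p = 0.0034) without the mice of tumors 2 and 6. The adipocyte markers as a list had a median r of 0.72 with Fasn, and all 5 that passed the filter were positive. The epithelial markers had a median of 0.68 and the macrophage markers 0.71, so adipocyte genes were not alone in this. The B lymphocyte markers went the other way, with a median r of -0.63. Between the sister tumors 3 and 4 Adipoq was 11.9 and 32.7 TPM while Fasn was 157 and 130 TPM. In tumors 10, 11 and 12 Adipoq was 10.6, 1.01 and 3.40 TPM and Fasn 110, 90.5 and 94.6 TPM. The order of both genes was thus the same in the latter mouse and opposite in the former. The part of fat tissue in the Fasn values was not tested. Hmgcs1 and the cell cycle gene Mki67 had r = 0.0053 (exact permutation p = 0.99, adjusted p = 0.99) and rho 0.13 (exact p = 0.74, adjusted p = 0.83), with r = 0.34 without the mice of tumors 2 and 9.

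Every gene was then fitted against Fasn and against Hmgcs1 with limma over the 9 mice. No gene passed an adjusted p of 0.05 with Fasn in either direction (0% and 0% of 16778 genes). At an unadjusted p below 0.05, 4 of 34 lipid genes were positive, beside 11.4% of all genes, and 1 was negative, beside 5.84%. The positive ones were Acly, Fads1, Elovl1 and Sc5d, and the negative one was Insig1. With Hmgcs1, 2.31% of all genes passed as positive and 0.614% as negative, but none of 34 lipid genes in either direction. At an unadjusted p below 0.05, 5 lipid genes were positive with Hmgcs1 (Acaca, Srebf1, Fdps, Lss and Dhcr7), beside 14.3% of all genes, and none negative, beside 5.22%. Among sterol genes the median r with Hmgcs1 was 0.56 and 12 of 12 were positive, beside a median of 0.13 over all genes. The epithelial markers had a median r of 0.77 with Hmgcs1 and the B lymphocyte markers -0.85, and their part was not tested.

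The caseins were used as a yardstick of milk gene expression, and the 2 yardsticks gave different pictures. Csn2 was positive at an adjusted p below 0.05 for 1 of 35 lipid genes, beside 0.185% of all genes, and negative for none, beside 0.0179%. That gene was Thrsp, which rose by 0.62 ± 0.09 log2 units per log2 unit of Csn2 (SE, limma, n = 9 mice, adjusted p = 0.041). Thrsp lost this call without the mouse of tumor 9 (slope 0.77, adjusted p = 0.49) and without each of 6 other mice in turn (slopes between 0.59 and 0.62, adjusted p between 0.061 and 0.069). In the sister tumors 10, 11 and 12, Csn2 was 9.51, 44.6 and 127 TPM, in the same order as Thrsp, and in tumors 3 and 4 it was 9.50 and 24.9 TPM with Thrsp at 0.972 and 2.45 TPM.

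At an unadjusted p below 0.05, 6 lipid genes were positive with Csn2, beside 9.01% of all genes, and 1 was negative, beside 6.96%. The positive ones were Thrsp, Dgat2, Lpin1, Acacb, Fads1 and Sc5d, and the negative one was Dgat1. Tumor 9, with the highest Csn2, was also the tumor with the highest value of 5 of these 6 positive genes, all but Thrsp. The acyl chain genes had a median r of 0.54 with Csn2, the desaturation and elongation genes 0.24 and the sterol genes -0.0045, beside -0.049 over all genes. The adipocyte markers had a median r of 0.72 with Csn2. The 6 proliferation genes had a median r of -0.74, with 5 of them negative at an unadjusted p below 0.05, and all 6 were lowest in tumor 9. The part of either list in these relations was not tested.

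**Figure D5:**
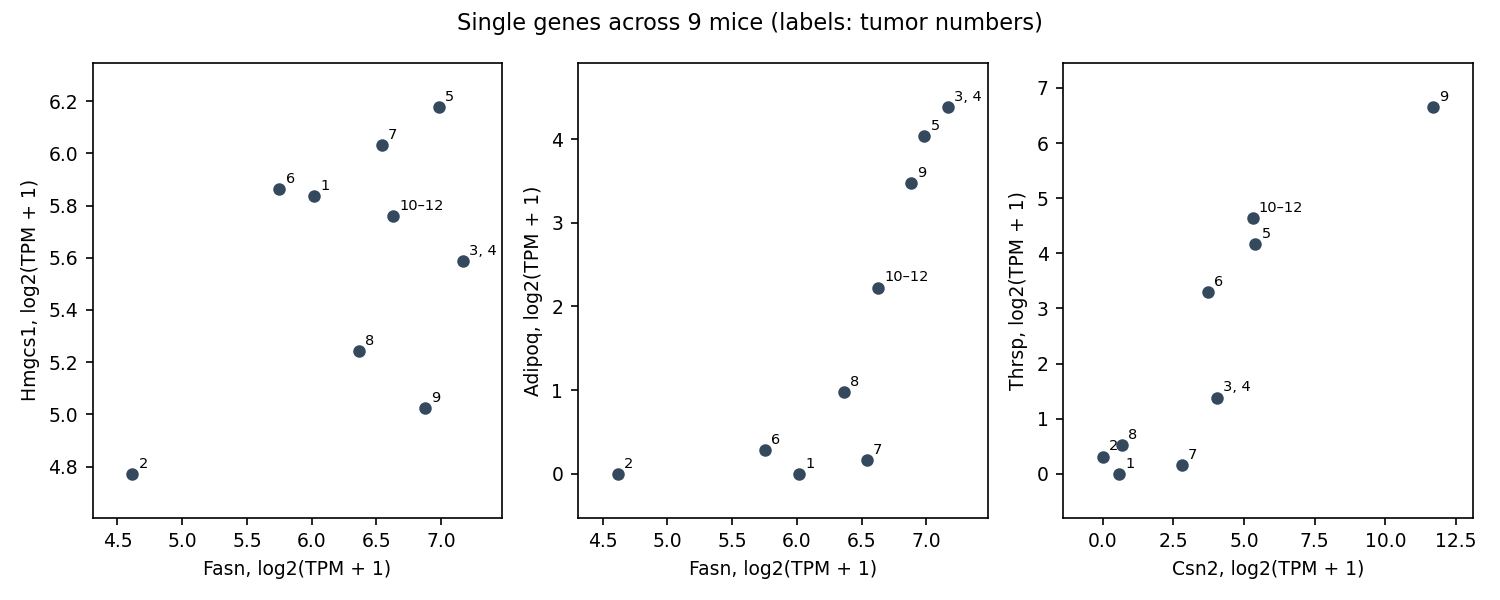
Log2(TPM + 1) of pairs of genes, with 1 point per mouse labelled by its tumor numbers: Hmgcs1 against Fasn, Adipoq against Fasn, and Thrsp against Csn2. The mouse of tumor 2 lies far to the left for Fasn, and the mouse of tumor 9 far to the right for Csn2.

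For single pairs, Fasn and Csn2 had r = 0.59 (exact permutation p = 0.11, adjusted p = 0.53) and rho 0.78 (exact p = 0.017, adjusted p = 0.086) over 9 mice, with r = 0.61 without the mice of tumors 2 and 6. Hmgcs1 and Csn2 had r = -0.025 (exact permutation p = 0.95, adjusted p = 0.99) and rho 0.22 (exact p = 0.58, adjusted p = 0.80), with r = 0.50 without the mice of tumors 2 and 9. Without the mice of tumors 2 and 8, r of Hmgcs1 and Csn2 was -0.73. Neither pair passed the correction.

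Csn3 split the mice into 2 clusters, with 3 mice at 26.5 TPM or less (tumors 2, 8 and 9) and 6 mice at 313 TPM or more. Correlations with Csn3 were therefore taken within the 6 mice above the gap. Fasn and Csn3 had r = 0.097 (exact permutation p = 0.83, adjusted p = 0.99) and rho 0.31 (exact p = 0.56, adjusted p = 0.80). Hmgcs1 and Csn3 had r = -0.62 (exact permutation p = 0.18, adjusted p = 0.54) and rho -0.60 (exact p = 0.24, adjusted p = 0.80). Csn2 and Csn3 had r = 0.44 (exact permutation p = 0.38, adjusted p = 0.67) and rho 0.43 (exact p = 0.42, adjusted p = 0.80). Within these 6 mice no relation passed. Over all 9 mice, with the gap included, Csn3 rose by 6.88 ± 1.45 log2 units per log2 unit of Hmgcs1 (SE, limma, adjusted p = 0.038), the opposite sign to that within the 6 mice. This call was lost without the mouse of tumor 2 (slope 5.81, adjusted p = 0.19), without each of 4 other mice in turn (slopes between 6.60 and 7.52, adjusted p between 0.051 and 0.079), and without those of tumors 2 and 8 (slope 3.57, adjusted p = 0.22) or 2 and 9 (slope 6.48, adjusted p = 0.36).

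The limma fit against Csn3 used all 9 mice and so included the gap. In it 1 of 35 lipid genes was positive at an adjusted p below 0.05, beside 2.35% of all genes, and none negative, beside 0.733%. The gene was Fdps, which rose by 0.15 ± 0.03 log2 units per log2 unit of Csn3 (SE, limma, n = 9 mice, adjusted p = 0.019), and the call was lost without the mouse of tumor 2 (slope 0.15, adjusted p = 0.13), that of tumor 6 (slope 0.14, adjusted p = 0.051), those of tumors 2 and 8 (slope 0.13, adjusted p = 0.22) and those of tumors 2 and 9 (slope 0.17, adjusted p = 0.057). At an unadjusted p below 0.05, 9 lipid genes were positive, beside 12.5% of all genes, and none negative, beside 5.14%, and 6 of the 9 were sterol genes (Hmgcs1, Fdps, Fdft1, Sqle, Msmo1 and Dhcr7). Of the 7 epithelial markers, 6 passed the adjusted test with Csn3 in the same direction. The B lymphocyte markers had a median r of -0.76 with Csn3, and the part of either list was not tested. Within the 6 mice above the gap the sterol genes had a median r with Csn3 of 0.41, with 11 of 13 positive, the acyl chain genes 0.22, with 5 of 6 positive, and the desaturation and elongation genes -0.47, with 1 of 7 positive, beside 0.029 over all genes.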

How the data were processed

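RNA of 12 mammary tumors from 9 mice was read as deposited TPM. The authors trimmed adapters from paired-end reads of stranded mRNA libraries, aligned them to the GRCm38 transcriptome with HISAT2 and quantified them with StringTie 2.1.6. How transcripts were summed per gene is not given in the sources used here. TPM holds no read number, so no count model was used and the precision from depth is unknown. Value columns were assigned to tumors through the animal and suffix in their names.

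Log2(TPM + 1) was computed, and tumors of one mouse were averaged (n = 9). Genes with a mean of 1 TPM or more over the 12 tumors (16779) were tested. Between mice, the limma 3.58.1 moderated F test used 3 residual degrees of freedom from sister tumors (2.41 prior), so it treats all mice as varying like those 2. Slopes on Csn2, Csn3, Fasn and Hmgcs1 were fitted with limma over mice, and p-values were adjusted by Benjamini-Hochberg over all genes. Correlations of 10 gene pairs used exact two-sided permutations of the pairings (362880 for 9 mice). For the 3 pairs with Csn3, all 9 mice had been planned, and the 6 mice above a gap at 300 TPM were used because the mice formed 2 clusters. Fatty acid minus sterol is a description with no test, since its lists were chosen.

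The named genes were the 36 lipid genes, Csn2, Csn3 and genes of lists for the pathways and cell types; these members and lists were chosen with earlier results of these data known. One listed pathway gene, Gpat3, was not matched to a value. Marker lists were epithelial, B lymphocyte, adipocyte, macrophage, fibroblast, proliferation, skeletal muscle, sebaceous and milk genes. Across the 12 tumors Acta1, a muscle gene, reached 168 TPM in tumor 3 and Krt79, a sebaceous gene, 73.4 TPM in tumor 7. The other sebaceous genes were low in tumor 7, with Mc5r at 5.22 TPM, Awat2 at 0.315 TPM, and Awat1 and Elovl3 at 0. Gene positions came from GENCODE vM21 on GRCm38. Alternatives were another pseudocount (0.1), no filter, TPM rescaled without mitochondrial genes, each tumor as a unit, other list definitions, leaving out tumors or mice, and, chosen after seeing the data, leaving out tumor 8, tumor 9, tumors 2 and 8, or tumors 2 and 9 (fatty acid minus sterol: tumors 2 and 9 only; slopes and correlations: both pairs). The fits were tested on simulated data. The software was R 4.3.3 and Python 3.11.15 with scipy 1.17.1, numpy 2.4.6, pandas 2.3.3 and matplotlib 3.10.9.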

Additional observations from a re-analysis of the deposited data

Results flagged for a closer look

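Each of 40 values (35 lipid genes, both caseins, both list medians and their difference) was checked for a single distant mouse among the 9, with Dixon's ratio of gap to range at its customary critical value. Chance picks out about 1 in 20 groups, and 5 were picked out here. On the log2(TPM + 1) scale, Dgat2 was 8.29 in the mouse of tumor 9 with the next mouse at 3.25, and Csn2 was 11.70 in the same mouse with the next at 5.40. Lpin1 was 3.30 in the mouse of tumor 9 with the next at 2.51. Insig1 was 6.33 in the mouse of tumor 2 with the next at 5.08. Elovl1 was lowest in the mouse of tumor 2, at 5.47, with the next lowest at 6.37.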

How the results depend on the processing

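No paired analysis was possible because there is 1 group of tumors. Leaving out 1 tumor at a time (tumors 2, 3, 4 and 8 to 12; tumors 1, 5, 6 and 7 were not left out) moved the genes that differed between mice from 7204 to between 2053 and 10407, and the lipid genes among them from 18 to between 4 and 28; with no filter the latter were 10, and the counts were 1012 and 2 without tumors 2 and 9 and 3058 and 7 without tumors 2 and 8. The genes passing with Csn2 (34), Csn3 (518), Fasn (0) and Hmgcs1 (490) were 0 to 815, 19 to 1964, 0 to 0 and 0 to 1063 with 1 mouse left out, and the lipid genes among them (1, 1, 0 and 0) were 0 to 2, 0 to 3, 0 to 0 and 0 to 0. A pseudocount of 0.1 gave 3 genes with Csn2 and 856 with Csn3, and 0, 2 and 1 lipid genes with Csn2, Csn3 and Hmgcs1. No filter gave 0, 185 and 98 genes with Csn2, Csn3 and Hmgcs1, and 0 lipid genes with Csn2. Each tumor as a unit gave 212, 1288, 289 and 1010 genes with Csn2, Csn3, Fasn and Hmgcs1, and 5 lipid genes with Csn3. Without the mice of tumors 2 and 9 the genes with Csn2, Csn3 and Hmgcs1 were 0, 267 and 0, and the lipid genes 0 with both caseins; without those of tumors 2 and 8 they were 1613, 0 and 0, with 3 and 0 lipid genes for the caseins. The causes were not tested.

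With 1 mouse left out, r was -0.15 to 0.66 for Fasn with Hmgcs1, 0.50 to 0.68 for Fasn with Csn2, -0.36 to 0.65 for Fasn with Csn3, -0.40 to 0.68 for Hmgcs1 with Csn2, -0.78 to -0.38 for Hmgcs1 with Csn3, -0.35 to 0.63 for Hmgcs1 with Mki67, -0.24 to 0.50 for Srebf1 with Fasn, 0.12 to 0.64 for Srebf2 with Hmgcs1 and 0.72 to 0.89 for Fasn with Adipoq. The sign turned for Hmgcs1 with Csn2 at a pseudocount of 0.1 (0.14) and without the mice of tumors 2 and 9 (0.50), for Hmgcs1 with Mki67 with each tumor as a unit (-0.00040), for Srebf1 with Fasn without the mice of tumors 2 and 9 (-0.27) or 2 and 8 (-0.63), and, without those of tumors 2 and 8, for Fasn with Hmgcs1 (-0.25) and Srebf2 with Hmgcs1 (-0.15). Fasn with Adipoq passed at a pseudocount of 0.1 (r = 0.81, adjusted p = 0.021, exact permutation test) and with each tumor as a unit (r = 0.76, adjusted p = 0.010, permutation test), and without the mouse of tumor 2 (r = 0.89, adjusted p = 0.032) or of tumor 7 (r = 0.85, adjusted p = 0.027; exact permutation tests). Fatty acid minus sterol was 0.35 to 0.59 with 1 mouse left out, -0.31 with the mean of a list and -1.84 with the acyl chain genes alone. It was 0.73 with list genes of a mean of 1 TPM or more and 0.28 with the glycerolipid genes added. With 9 mice and unknown depth, a low count does not show that genes were unrelated.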

Other observations

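Among genes that store or secrete milk fat, chosen after their values were seen, Plin2, the coat protein of lipid droplets, was lowest in tumor 2, at 59.6 TPM, next lowest in tumor 9, at 159 TPM, and highest in tumor 6, at 520 TPM. Btn1a1 and Xdh, which envelop the milk fat globule, were 1.45 and 28.3 TPM in tumor 9 and reached 20.6 TPM in tumor 1 and 74.3 TPM in tumor 3. Lpl, which takes fatty acids from the blood, was highest in tumor 9, at 88.2 TPM, and was 28.9 TPM in tumor 2 and 25.6 TPM in tumor 4.

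Me1, the malic enzyme that makes NADPH for chain synthesis, ranged from 0.225 TPM in tumor 2 and 10.5 TPM in tumor 9 to 104 TPM in tumor 8. Tecr, which reduces the growing chain during elongation, was lowest in tumor 9, at 95.1 TPM, and highest in tumor 7, at 468 TPM. Nr1h3, the liver X receptor alpha, was 39.8 TPM in tumor 8 and at most 12.0 TPM elsewhere. The B-cell-rich tumor 2 had the highest level of Lbr, a sterol reductase of the nuclear envelope, at 158 TPM against at most 59.9 TPM elsewhere.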
